A study of Mus musculus with 6 samples.

Results

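The keratin gene family was taken as every entry of the deposited gene table whose symbol is Krt followed by a number and at most one lower-case letter, which gave 54 of 49492 genes. Keratin-associated protein genes and the pseudogene Krt8-ps fall outside this rule. Poly(A) RNA had been sequenced from palatal shelves, the tissue that forms the secondary palate, of C57BL mouse embryos at E14.5. In the 3 control libraries (Prmt1 fl/fl) both copies of the arginine methyltransferase gene Prmt1 were floxed. In the 3 deletion libraries (Wnt1-Cre; Prmt1 fl/fl) the same floxed alleles were combined with a Cre transgene driven by Wnt1 sequences, active in the neural crest. Palatal mesenchyme is mostly of neural crest origin, whereas the keratin-expressing epithelium is not. A Cre transgene without floxed alleles was not analysed here, so an effect of Cre cannot be told apart from that of the deletion. Whether libraries of a group came from separate embryos is not stated, and the p-values then measure only the spread between these libraries.

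Keratins are the intermediate filament proteins of epithelial cells. A filament is built from pairs of an acidic type I and a basic type II keratin, and each epithelial layer uses its own pairs. Krt5 and Krt14 form the usual pair of basal stratified epithelium, Krt8 and Krt18 that of simple epithelium, and Krt1 and Krt10 that of the first differentiated layers of skin. A flat outer layer, the periderm, covers the palatal shelves before they meet, and Krt6a and Krt17 are among its keratins. Krt6a, Krt16 and Krt17 are also called stress keratins, because adult epidermis turns them on after wounding. Krt6a and Krt17 were counted in both the periderm and the stress group.

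The numbers 212, 213 and 220 (control) and 208, 211 and 221 (deletion) identify libraries by column name, always in that order below. Prmt1 measured 258, 249.7 and 246 CPM (counts scaled to a common library size by the TMM method) in control and 201, 206 and 217 CPM in deletion libraries. Controls 212 and 213 had 15.5 and 16.0 CPM of Xist and high Y-linked counts, and were male, while the other 4 libraries had 3384 to 4487 CPM of Xist. Control 220 is thus the one control of the same sex as the deletion libraries. Osr2, a palate mesenchyme factor (82.4 to 105 CPM), and the epithelial cadherin gene Cdh1 (93.8 to 139 CPM) were present in every library. In bulk tissue, fewer epithelial cells and less keratin RNA per epithelial cell cannot be told apart.

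Keratin genes resemble each other, which bears on how well their counts can be separated. The family lies in 2 blocks of 27 genes each (mm10). The block at chr11:99232761-100269871 holds type I genes, and the block at chr15:101347444-102032027 holds the type II genes and the type I gene Krt18. Coding stretches of Krt14, Krt16 and Krt17, all on the minus strand of chromosome 11, are shown because these related genes fell by very different amounts. Each lies within a single exon, at chr11:100207016-100207165, chr11:100248475-100248624 and chr11:100260637-100260786. Capitals mark bases that differ from Krt14 in the same window of 150 bases, taken from GENCODE M21 transcripts on GRCm38.
Krt14: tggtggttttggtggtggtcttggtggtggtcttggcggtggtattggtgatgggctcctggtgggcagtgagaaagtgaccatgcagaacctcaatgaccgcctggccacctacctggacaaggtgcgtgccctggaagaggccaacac
Krt16: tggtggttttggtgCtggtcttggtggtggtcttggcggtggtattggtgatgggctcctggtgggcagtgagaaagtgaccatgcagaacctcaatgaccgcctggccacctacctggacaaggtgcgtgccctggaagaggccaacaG
Krt17: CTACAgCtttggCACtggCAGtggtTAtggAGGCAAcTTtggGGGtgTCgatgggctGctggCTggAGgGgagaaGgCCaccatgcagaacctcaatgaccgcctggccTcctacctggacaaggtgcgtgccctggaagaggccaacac

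In this window Krt16 differed from Krt14 at 2 bases and Krt17 at 37. The window was placed on the longest identical coding run of Krt14 and Krt16 (134 bases). The 2 differences therefore do not describe their whole coding sequences. Over whole transcripts, 2.78% of the 100-base words of Krt14, 24.3% of those of Krt16 and 0% of those of Krt17 also occurred in a transcript of another gene. For Krt16 that gene was mostly Gm11597, which held no count in any library. Krt16 counts were 0.0195% to 1.19% of Krt14 counts in each library, and how reads of the shared stretches were divided is uncertain.

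The second close pair is Krt6a (chr15:101694081-101694230) and Krt6b (chr15:101680056-101680205), also on the minus strand, shown because Krt6a had the largest fall of the abundant keratins. Capitals mark bases of Krt6b that differ from Krt6a.
Krt6a: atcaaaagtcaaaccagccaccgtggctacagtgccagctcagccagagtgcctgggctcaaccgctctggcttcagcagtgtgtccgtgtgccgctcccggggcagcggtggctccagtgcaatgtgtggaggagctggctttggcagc
Krt6b: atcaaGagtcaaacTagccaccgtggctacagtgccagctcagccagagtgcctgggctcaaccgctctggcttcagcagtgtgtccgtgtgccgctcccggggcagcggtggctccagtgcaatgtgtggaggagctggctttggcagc

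Krt6b differed from Krt6a at 2 of these 150 bases, and their longest identical coding run was 280 bases. This window too was placed on that run, so it does not describe the whole coding sequences. Of the 100-base words of Krt6a, 42.9% occurred in another gene, mostly Krt6b. Krt6b held at most 0.325% of the count of Krt6a, with 32.4, 18.6 and 2.51 counts in control libraries and 3.78 in deletion 221, and practically none in 208 and 211. How reads were divided between these genes is uncertain. For Krt8, 17.1% of 100-base words were shared, mostly with Krt8-ps, while Krt15, Krt17, Krt18, Krt19, Krt20 and Krt7 shared none. Read length is not given in the sources used here, so the word length of 100 bases is a yardstick.

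Of the 54 keratins, 24 passed the filter on low counts (14 of type I and 10 of type II) and 30 did not. All 3 basal, 4 periderm and 6 simple keratins passed, as did 3 of 4 stress keratins. The 30 left out had at most 34 counts and stayed below 1 CPM in every library. They were Krt6b, the corneal Krt12, 5 suprabasal keratins (Krt2, Krt9, Krt76, Krt77 and Krt78), 8 keratins of the hair follicle sheath and 15 of hair and nail, and 3 of them (Krt25, Krt26 and Krt81) had no count anywhere.

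By edgeR's quasi-likelihood fit over 19284 genes (Benjamini-Hochberg adjusted p under 0.05), 7 keratins fell and 0 rose, where 3.37% of all tested genes fell and 3.65% rose. At an unadjusted p under 0.05, 12 were lower and 0 higher, where 4344 of the 19284 tested genes passed in either direction. With DESeq2 or limma voom 0 rose. The 7 were Krt14, Krt17, Krt6a, Krt16, Krt18, Krt20 and Krt80. The log2 change, deletion minus control, had a median of -0.73 over the 24, against -0.00 over all tested genes. In 11 keratins every deletion library lay below every control, as in 13.5% of tested genes. In 2, Krt24 and Krt87, every deletion library lay above every control, as in 14.1% of tested genes. Control 220 lay above every deletion library in 16 keratins, as in 29.8% of tested genes.

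**Figure D1:**
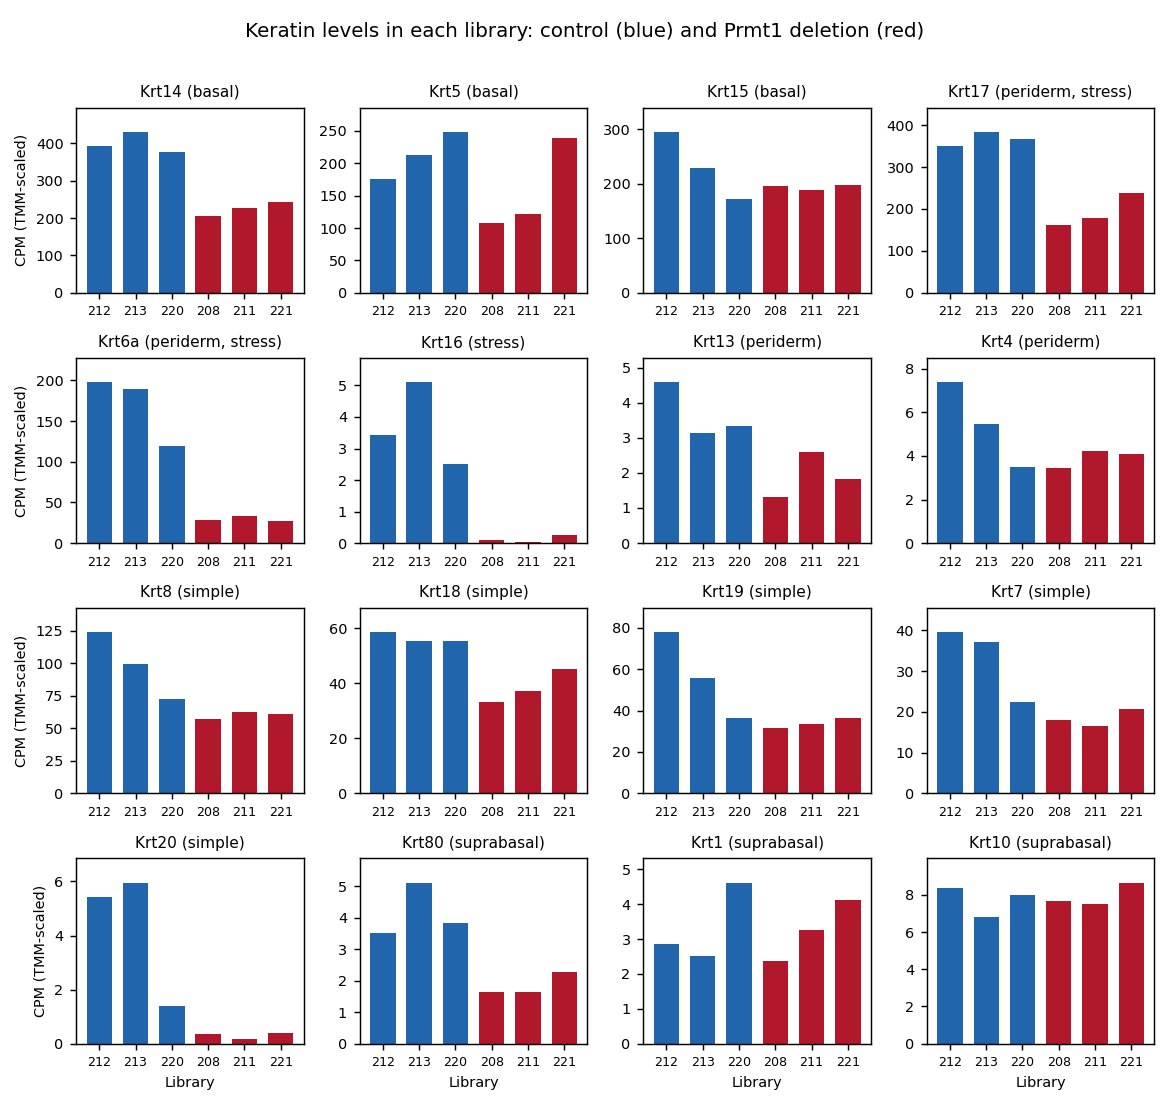
TMM-scaled CPM of 16 keratins in each library, control in blue and Prmt1 deletion in red, each bar 1 library and each axis starting at 0. Krt6a, Krt16 and Krt20 were low in all 3 deletion libraries, Krt5 was high in deletion 221, and Krt10 was level across the 6 libraries.

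Of the role groups with 3 or more tested keratins, the stress keratins had the lowest median log2 change (-2.51), with Krt16 the lowest single value of the family. Krt16, a type I partner of Krt6a in activated epidermis, stood at 3.44, 5.11 and 2.5 CPM in control and 0.101, 0.0441 and 0.247 CPM in deletion libraries. The deletion values rest on 5.03, 2.01 and 11.1 estimated counts, against 114 to 253 in controls. Every deletion library was far below the lowest control. Krt16 fell 28.1-fold (log2 change -4.81 ± 0.47 SE, edgeR adjusted p = 0.000581), with a 95% interval of -5.86 to -3.77 on the log2 scale.

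Krt6a, the type II keratin of periderm and wounded epidermis, stood at 198, 189 and 119 CPM in control and 28.5, 33.1 and 27.5 CPM in deletion libraries. Control 220 was lower than the other controls, and the 3 deletion libraries were close together, without overlap. Krt6a fell 5.68-fold (log2 change -2.51 ± 0.24 SE, edgeR adjusted p = 0.00828). Without deletion 208 it did not pass (-2.48, edgeR adjusted p = 0.0571).

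Krt17, the type I keratin found with Krt6a in the periderm, stood at 349.8, 384 and 367 CPM in control and 162, 179 and 239 CPM in deletion libraries. The groups did not overlap, and deletion 221 was the nearest to the controls. Krt17 fell 1.90-fold (log2 change -0.92 ± 0.14 SE, edgeR adjusted p = 0.0132). It did not pass without control 213 (-0.89, edgeR adjusted p = 0.0607) or without deletion 211 (-0.87, edgeR adjusted p = 0.0522).

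In relation to other keratins, Krt6a was lower against Krt17 and Krt8 and higher against Krt16. The log2 ratio of its CPM to that of Krt17 was -0.82, -1.02 and -1.62 in control and -2.51, -2.43 and -3.12 in deletion libraries. The same ratio of Krt6a to Krt8 was 0.68, 0.92 and 0.72 in control and -1.01, -0.92 and -1.14 in deletion libraries. Against Krt16, which fell more than Krt6a, the log2 ratio was 5.84, 5.21 and 5.57 in control and 8.01, 9.24 and 6.74 in deletion libraries. None of these 3 ratios overlapped between groups. The log2 ratios of Krt6a, Krt14 and Krt17 to Krt18 were also lower without overlap (differences of -1.92, -0.27 and -0.38). Overlap was found for Krt14, Krt17 and Krt5 against Krt8 and for Krt5 against Krt18. It was also found within the pairs Krt5 and Krt14, Krt8 and Krt18, Krt4 and Krt13, and Krt1 and Krt10. With 3 libraries against 3, an exact two-sided permutation test cannot give a p below 0.1, so these ratios are given as values.

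The other periderm keratins, Krt4 and Krt13, form the pair of non-cornified oral epithelium and had levels of a few CPM. Krt13 stood at 4.59, 3.13 and 3.34 CPM in control and 1.3, 2.61 and 1.83 CPM in deletion libraries. Its groups did not overlap and it did not pass (log2 change -0.95 ± 0.26 SE, edgeR adjusted p = 0.0549), but it passed without deletion 211 (-1.24, edgeR adjusted p = 0.0319). Krt4 stood at 7.39, 5.48 and 3.48 CPM in control and 3.44, 4.23 and 4.11 CPM in deletion libraries. Its groups overlapped through control 220 (log2 change -0.47 ± 0.24 SE, edgeR adjusted p = 0.286), and without that library it passed (-0.71, edgeR adjusted p = 0.0488). Against control 220 alone, the control of the same sex, the log2 change of Krt4 was 0.18 (edgeR adjusted p = 0.833). Of the 4 periderm keratins 2 fell (median log2 change -0.94), and of the 3 tested stress keratins all 3 fell (median -2.51). Krt6a and Krt17 are in both counts, and 3.37% of all tested genes fell.

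**Figure D2:**
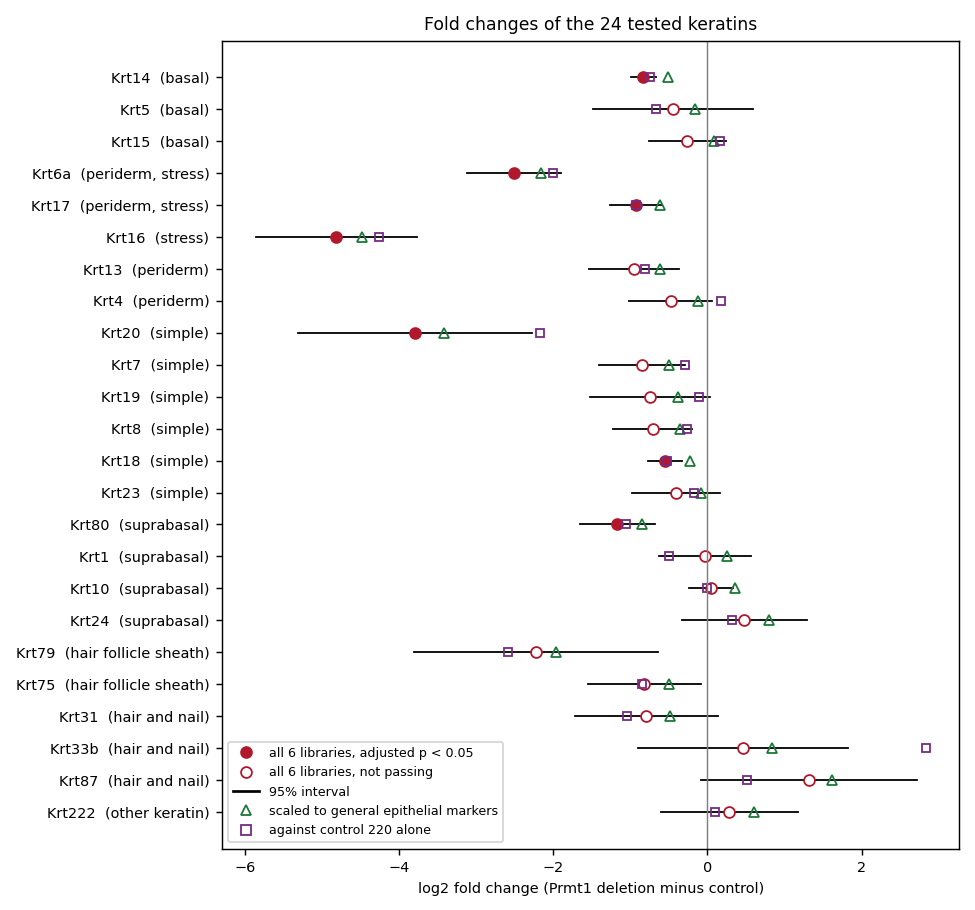
Log2 change (Prmt1 deletion minus control) of the 24 tested keratins by role. Circles use all 6 libraries, filled where edgeR adjusted p was under 0.05, with black 95% intervals, triangles the scaling to general epithelial markers, and squares control 220 as the only control. Krt16, Krt20 and Krt6a had the lowest values with all 6 libraries.

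The 3 basal keratins gave different results. Krt14, the type I basal keratin, stood at 393, 431 and 378 CPM in control and 205, 226 and 244 CPM in deletion libraries. It was lower in every deletion library and fell 1.78-fold (log2 change -0.83 ± 0.07 SE, edgeR adjusted p = 0.000304). Krt14 and Krt16 passed in each of the 17 alternative fits, with log2 changes from -0.89 to -0.51 for Krt14 and from -5.61 to -4.25 for Krt16.

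Krt5, the type II partner of Krt14, stood at 176, 212 and 248 CPM in control and 108, 122 and 239 CPM in deletion libraries. Deletion 208 and 211 lay below every control, while deletion 221 lay above 212 and 213. Krt5 did not pass (log2 change -0.44 ± 0.38 SE, edgeR adjusted p = 0.593), and its 95% interval ran from -1.48 to 0.59. Krt15, the other type I basal keratin, stood at 295, 229 and 173 CPM in control and 195, 189 and 199 CPM in deletion libraries. Control 220 had the lowest value of the 6. Krt15 did not pass (log2 change -0.26 ± 0.20 SE, edgeR adjusted p = 0.526), was at 0.17 against control 220 alone and at 0.09 after the epithelial scaling described below, and passed without control 220 (-0.43, edgeR adjusted p = 0.0309).

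Markers of the tooth germ, whose epithelium lies close to the palate, varied along with Krt5. Its 7 markers summed to 58.4, 117 and 178 CPM in control and 47.7, 61.5 and 133 CPM in deletion libraries, highest in 220 and 221. By edgeR 0 of the 7 passed (median log2 change -0.49), and Dlx3 and Shh had the smallest adjusted p (0.207 and 0.222). An unadjusted p under 0.05 was found for 2 of the 7, and for 4344 of all 19284 tested genes. The Wnt effector Lef1 stood at 5.42, 16.3 and 27.3 CPM in control and 8.98, 9.71 and 36.4 CPM in deletion libraries. The part of tooth epithelium in the values of Krt5 was not tested. The log2 ratio of Krt5 to Krt14 was -1.16, -1.02 and -0.61 in control and -0.92, -0.89 and -0.03 in deletion libraries, highest in each group for the library with most tooth marker RNA.

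Among the 6 simple keratins 2 fell (median log2 change -0.73), where 3.37% of all tested genes fell. Krt18, the type I keratin of simple epithelium, stood at 58.6, 55.2 and 55.6 CPM in control and 33.3, 37.2 and 45.3 CPM in deletion libraries. The controls lay within a narrow range and the deletion libraries all lay below it. Krt18 fell 1.46-fold (log2 change -0.55 ± 0.10 SE, edgeR adjusted p = 0.0103), and it did not pass without control 213 (-0.56, edgeR adjusted p = 0.0531).

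Krt8, its type II partner, stood at 124, 99.8 and 72.7 CPM in control and 57.4, 62.9 and 60.8 CPM in deletion libraries. The groups did not overlap, but the controls spread widely and Krt8 did not pass (log2 change -0.71 ± 0.20 SE, edgeR adjusted p = 0.115). The pseudogene Krt8-ps, which shares sequence with it, stood at 25.0, 21.6 and 17.8 CPM in control and 13.0, 12.9 and 13.8 CPM in deletion libraries and passed (log2 change -0.70, edgeR adjusted p = 0.00592). How reads were divided between them is not stated.

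Krt19 and Krt7, a small type I keratin and a type II keratin of ducts and airways, had the same order of controls as Krt8. Krt19 stood at 77.9, 55.6 and 36.6 CPM in control and 31.7, 33.5 and 36.4 CPM in deletion libraries. Krt7 stood at 39.5, 37.2 and 22.4 CPM in control and 17.9, 16.5 and 20.6 CPM in deletion libraries. In both, control 220 lay only just above the highest deletion library. Neither passed (edgeR adjusted p = 0.240 and 0.0878). Without control 220 all 3 passed, with log2 changes of -0.89 for Krt8, -0.98 for Krt19 and -1.06 for Krt7 (edgeR adjusted p = 0.000697, 0.00970 and 0.000373). Against control 220 alone the values were -0.27, -0.11 and -0.28.

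Krt20, a type I keratin known from gut, bladder lining and Merkel cells, stood at 5.42, 5.96 and 1.39 CPM in control and 0.360, 0.175 and 0.380 CPM in deletion libraries. Control 220 was well below the other controls and still above every deletion library. Krt20 fell 13.8-fold (log2 change -3.79 ± 0.64 SE, edgeR adjusted p = 0.0183), and its log2 change was -2.17 against control 220 alone. It did not pass without deletion 208, 211 or 221 (-3.93, -3.52 and -3.97, edgeR adjusted p = 0.102, 0.0937 and 0.0770). Krt23, the last of the simple keratins, stood at 1.69, 1.54 and 1.28 CPM in control and 1.00, 1.05 and 1.34 CPM in deletion libraries, with overlap (log2 change -0.41 ± 0.26 SE, edgeR adjusted p = 0.393).

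Markers of nasal epithelium, which faces the upper side of the palatal shelf, were lower as well. For comparison, 3.37% of all tested genes fell and 3.65% rose by edgeR. Of 7 markers of multiciliated cells 6 fell and 0 rose by edgeR (median log2 change -1.91), with sums of 81.0 to 118 CPM in control and 53.4 to 60.9 CPM in deletion libraries. The other, Rfx3, stood at 35.2, 38.5 and 41.0 CPM in control and 40.7, 39.3 and 38.8 CPM in deletion libraries (log2 change 0.05). It made up a large part of these sums. Foxj1, the regulator of motile cilia, stood at 43.4, 45.1 and 22.5 CPM in control and 10.9, 9.77 and 7.77 CPM in deletion libraries. Tekt1, Pifo, Ccno and Dnah5, genes of ciliated cells, fell 2.51-fold, 9.32-fold, 3.53-fold and 4.43-fold (edgeR adjusted p = 0.00428, 0.00491, 0.00727 and 0.0196). Of 5 tested markers of nasal secretory cells 1 fell, Reg3g, and the 6 markers summed to 91.8 to 146 CPM in control and 78.9 to 83.1 CPM in deletion libraries. Sox2 made up a large part of that sum, at 59.4, 54.0 and 51.0 CPM in control and 46.5, 50.9 and 52.4 CPM in deletion libraries. Most of the rest was Cyp2f2. Neither passed (log2 changes -0.14 and -1.01, edgeR adjusted p = 0.304 and 0.188). Scgb1a1, a defining gene of airway club cells, had no count in any library. The part of nasal epithelium in the values of Krt7, Krt8, Krt19 and Krt20 was not tested.

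**Figure D3:**
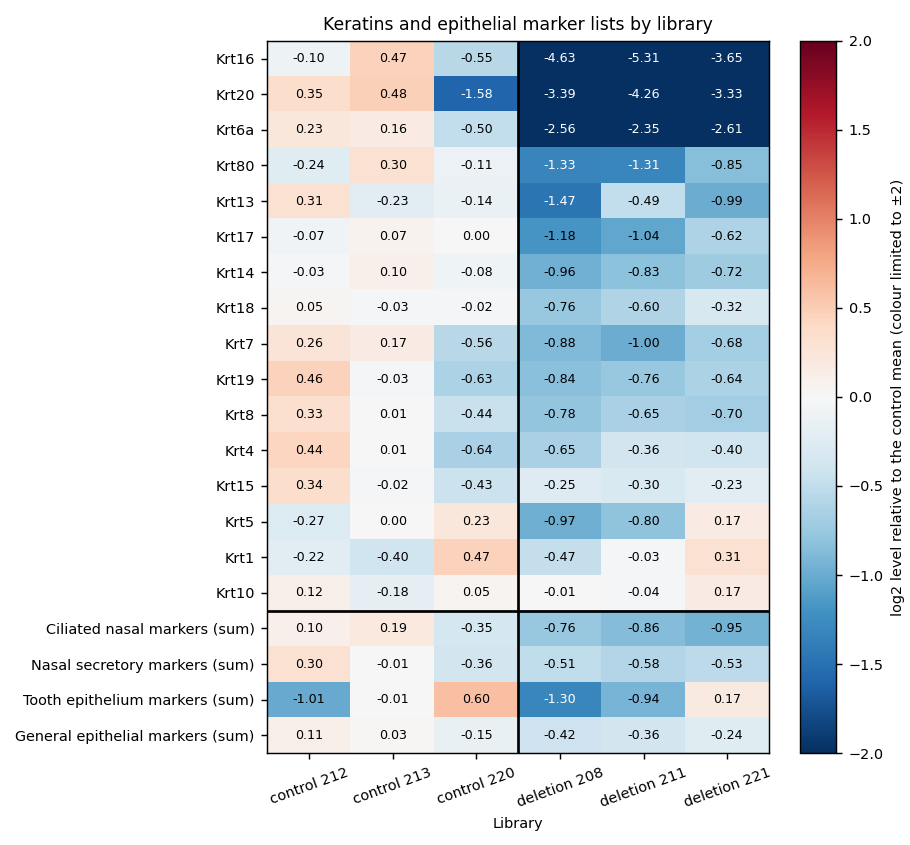
Log2 level of 16 keratins and of 4 summed marker lists in each library, relative to the mean of the 3 controls (0.05 CPM added to keratins), with colours limited to ±2. Krt8, Krt19, Krt7, Krt4 and Krt15 were highest in control 212 and lowest of the controls in 220. The sums of nasal secretory and of general epithelial markers had the same order of controls. Krt5 was high in 220 and 221, as were the tooth markers. The ciliated sum includes Rfx3, which did not fall.

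Of 4 tested suprabasal keratins 1 fell, where 3.37% of all tested genes fell. Krt10, the type I keratin of differentiating skin, stood at 8.36, 6.79 and 7.97 CPM in control and 7.67, 7.49 and 8.66 CPM in deletion libraries (log2 change 0.04, 95% interval -0.24 to 0.33). Its partner Krt1 stood at 2.86, 2.51 and 4.62 CPM in control and 2.38, 3.26 and 4.13 CPM in deletion libraries (log2 change -0.03, 95% interval -0.63 to 0.57). In both, the groups overlapped. Krt80, a type II keratin of differentiating cells, stood at 3.50, 5.11 and 3.83 CPM in control and 1.62, 1.64 and 2.28 CPM in deletion libraries, without overlap. It fell 2.25-fold (log2 change -1.17 ± 0.22 SE, edgeR adjusted p = 0.0106), and did not pass without control 213 (-0.99, edgeR adjusted p = 0.0719) or deletion 208 (-1.08, edgeR adjusted p = 0.0539). Krt24 stood at 0.358, 0.344 and 0.418 CPM in control and 0.50, 0.592 and 0.469 CPM in deletion libraries and did not pass (log2 change 0.48 ± 0.37 SE, edgeR adjusted p = 0.501).

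By edgeR 0 of the 6 other tested keratins passed with all libraries. An unadjusted p under 0.05 was found for 2 of them, and for 4344 of all 19284 tested genes. Krt75, of the follicle's companion layer, stood at 6.02, 3.62 and 4.97 CPM in control and 2.74, 1.56 and 3.97 CPM in deletion libraries (log2 change -0.82 ± 0.32 SE, edgeR adjusted p = 0.175), and it passed without deletion 221 (-1.17, edgeR adjusted p = 0.0374). Krt79, a keratin of the follicle opening, stood at 0.457, 1.64 and 1.58 CPM in control and 0.120, 0.110 and 0.558 CPM in deletion libraries (log2 change -2.22 ± 0.70 SE, edgeR adjusted p = 0.0958). It passed without control 212 (-2.62, edgeR adjusted p = 0.0407) or deletion 221 (-3.38, edgeR adjusted p = 0.0125). The hair and nail keratins Krt31, Krt33b and Krt87 had log2 changes of -0.79, 0.46 and 1.31, and Krt222 had 0.29 (edgeR adjusted p = 0.302, 0.723, 0.254 and 0.744). Against control 220 alone Krt33b was at 2.83 and Krt87 at 0.51, again without passing (edgeR adjusted p = 0.292 and 0.848). Of the keratins under the filter, Krt73 had 0, 23.0 and 34.0 counts in control and 0, 0 and 4.0 in deletion libraries, and Krt12 had 17.0, 15.3 and 0 against 1.00, 1.00 and 0.

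Levels were compared between genes as CPM per kilobase of merged exon length (mean ± SD, n = 3). In controls Krt17 and Krt14 were highest, at 237 ± 11 and 228 ± 15.5, and did not differ beyond their spread. Krt15 followed at 132 ± 34.7 and Krt5 at 96.6 ± 16.6 CPM per kilobase, with overlapping values. Krt6a came next at 69.8 ± 17.8, ahead of Krt8 at 50.4 ± 13.1, Krt18 at 39.3 ± 1.27 and Krt19 at 30.6 ± 11.1 CPM per kilobase. In each control Krt6a exceeded Krt8, while the order of Krt8, Krt18 and Krt19 differed between controls. In deletion libraries Krt14 and Krt17 still led, at 128 ± 11 and 125 ± 25.9, with Krt15 at 110.0 ± 2.95 CPM per kilobase. Krt6a, at 12.3 ± 1.24 CPM per kilobase, lay below Krt8, Krt18 and Krt19. These 8 genes and Krt7 made up 97.3% of all keratin CPM.

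As a share of the keratin pool per kilobase (mean ± SD, n = 3), Krt6a held 7.63% ± 1.44 in control and 2.33% ± 0.450 in deletion libraries. Krt15 held 14.4% ± 2.92 and 20.8% ± 2.61, with the highest control at 17.6% and the lowest deletion library at 18.1%. Krt14 held 25.2% ± 1.45 and 24% ± 1.56, a difference smaller than the spread. Krt10 held 0.404% ± 0.0583 and 0.706% ± 0.0531. Summed type I keratins exceeded type II keratins 3.00, 2.97 and 2.96 times in control and 3.93, 3.75 and 2.92 times in deletion libraries. Deletion 208 and 211, where Krt5 was low, had the highest ratios. The whole family summed to 1759, 1739 and 1513 CPM in control and 865, 924 and 1142 CPM in deletion libraries.

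**Figure D4:**
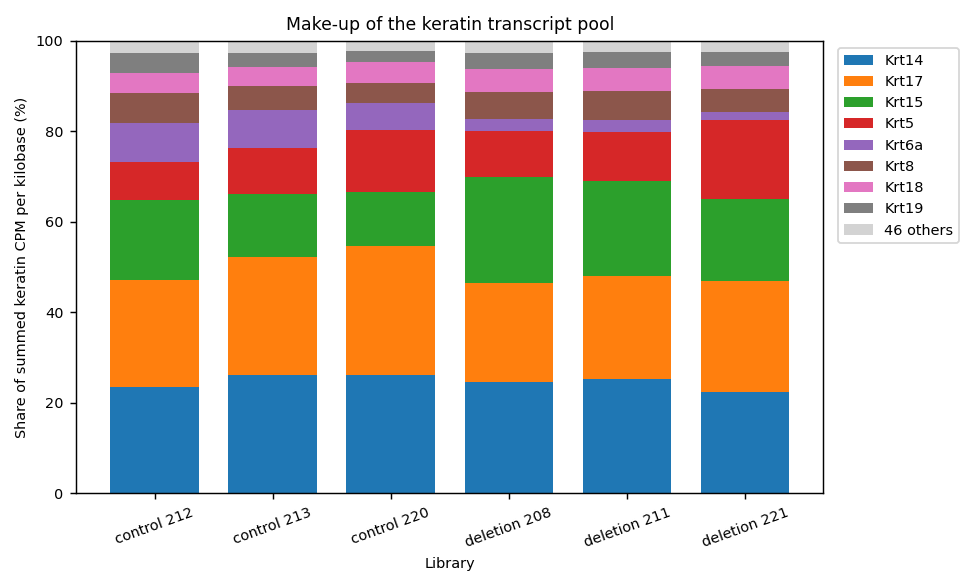
Share of each keratin in the summed keratin CPM per kilobase (%), 1 bar per library, with the 46 least abundant genes in grey. Krt6a takes 5.97% or more in each control and 2.69% or less in each deletion library, and Krt15 takes more in each deletion library than in any control.

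Several general epithelial markers and genes that work with keratins were lower too. By edgeR, 3.37% of all tested genes fell and 3.65% rose. Of 13 general epithelial markers, none a keratin, 5 fell and 0 rose (median log2 change -0.30), with sums of 468 to 559.6 CPM in control and 388 to 439 CPM in deletion libraries. The adhesion genes Epcam and Cdh1 fell 1.34-fold and 1.31-fold (edgeR adjusted p = 0.00432 and 0.00763), the protease gene St14 1.33-fold and the vesicle traffic gene Rab25 1.60-fold. Control 220 was the lowest control for Epcam, Cdh1, St14 and Rab25 (95.8, 120, 26.6 and 7.15 CPM), and lay above every deletion library. Among desmosome, hemidesmosome and linker genes, which anchor keratin filaments at the membrane, 10 of 18 fell and 0 rose (median -0.38). Dsg3, a desmosomal cadherin of stratified epithelium, fell 2.54-fold, from 10.7 to 12.3 CPM in control to 3.44 to 5.89 CPM in deletion libraries. Pkp1, a desmosomal plaque gene of the same layers, fell 2.31-fold, Dsc2 1.45-fold and Pkp3 1.37-fold.

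The counts that follow stand beside the same shares of all tested genes, 3.37% lower and 3.65% higher. Of 9 tested genes of the cornified envelope and late epidermal differentiation, 3 fell and 0 rose (median -1.04), namely Krtdap 3.27-fold, Lgals7 2.90-fold and Sfn 1.65-fold. Of 16 transcription factors known to act on keratin genes, 2 fell and 0 rose (median -0.25). Zfp750, a regulator of epidermal differentiation, fell 1.89-fold and Tfap2a, which encodes an AP-2 factor, 1.39-fold (edgeR adjusted p = 0.00859 and 0.0223). Among 14 other intermediate filament genes 1 fell, the lamin gene Lmna (1.32-fold), and 2 rose, the muscle desmin gene Des (1.92-fold) and the neurofilament gene Nefh (2.69-fold). Of 8 skeletal muscle markers 4 rose and 0 fell, the 4 being Myog, Tnnc1, Myod1 and Actc1 (2.35, 2.33, 2.19 and 2.30-fold), with sums of 414 to 453 CPM in control and 736 to 1203 CPM in deletion libraries.

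To set keratins against the epithelium as a whole, libraries were rescaled so that the mean log2 CPM of the 13 general epithelial markers was equal in each. This moved the median log2 change of all genes to 0.32 and the calls to 6777 higher and 302 lower, from 703 and 649. After it 11 keratins were called lower, where 1.57% of tested genes were, and 1 higher, Krt87, where 35.1% were. The 11 were Krt16, Krt20, Krt6a, Krt79, Krt80, Krt17, Krt13, Krt14, Krt7, Krt19 and Krt8. Krt16 and Krt6a were at -4.48 and -2.15, and Krt14 and Krt17 at -0.51 and -0.61. Krt18 did not pass (-0.23, edgeR adjusted p = 0.166), nor did Krt5 (-0.16), Krt1 (0.25) or Krt10 (0.36). The 13 markers enter as an exact scale, so these p-values leave out its error.

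With embryo sex as a covariate, the group difference rests on control 220 against the deletion libraries. There 4 keratins were called lower, where 0.332% of tested genes were. They were Krt16 (log2 change -4.26, edgeR adjusted p = 0.0117), Krt20 (-2.17, 0.0393), Krt6a (-2.01, 2.24e-05) and Krt14 (-0.75, 0.0130). Krt17, Krt18 and Krt80 were at -0.93, -0.53 and -1.05 without passing (edgeR adjusted p = 0.157, 0.164 and 0.150). Leaving out both male controls, 3 keratins were called lower (Krt6a, Krt14 and Krt16), where 0.22% of tested genes were. That fit tested 28 keratins and has a single control library, so its spread comes from the deletion libraries alone and control 220 is assumed to vary like them. Leaving out 1 library gave 9 keratins lower without 212 (2.3% of tested genes), 4 without 213 (0.802%), 14 without 220 (3.67%), 4 without 208 (1.25%), 6 without 211 (1.58%) and 9 without 221 (4.16%). The filter was applied anew in each, so 24 to 27 keratins were tested. The calls include Krt73 without 212, Krt12 and Krt6b without 220, and Krt6b without 221, none of which passed the filter with all libraries. Other tools and settings called 11 lower with DESeq2 (5.38%), 7 with limma voom (2.83%), 7 with no filter on low counts (3.0%; 51 keratins tested, with Krt6b among the 7) and 6 with a minimum change of 1.2-fold (0.897%).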

How the data were processed

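Poly(A) RNA of 6 palatal shelf samples was sequenced. The authors deposited a single table of estimated counts (expected counts) per gene, not normalized, with totals of 44919889 to 50022829 per library and 22.1% to 22.8% of values not whole. The tools named, per the submitters' processing notes, are CASAVA 1.8.2, STAR 2.4.1d and Partek, with build mm10. The counting step, annotation, strand setting and read length are not stated there. Columns were assigned to groups by name, with 0 left over.

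Counts were rounded, filtered with filterByExpr (minimum count 10, minimum total 15), scaled by TMM and tested with edgeR 4.0.16 (quasi-likelihood, robust=TRUE) in R 4.3.3, without covariates. P-values were adjusted by Benjamini-Hochberg over all tested genes (threshold 0.05). SE was derived from the log2 change and its F statistic. CPM use unrounded counts, and log2 ratios add 0.5 counts. The test was checked on simulated data. No replicate pair agreed within sampling noise. Positions, sequences and exon lengths (all transcripts merged, so retained introns lower the level per kilobase) come from GENCODE M21 on GRCm38, the assembly of mm10.

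The members, roles and gene lists were chosen with earlier results of these data known. Every tested keratin is named, and from each other list at most 4 genes past the threshold by smallest p, or otherwise 2, except for a result not reported here. Lef1, Foxj1, Rfx3, Osr2, Krt8-ps, Gm11597, Scgb1a1, Krt12 and Krt73 were named after their values were seen. By edgeR, 0 of 7 endothelial (Kdr and Emcn lowest, adjusted p = 0.0623 and 0.0997), 8 red cell (Hbb-y, 0.412), 7 mesenchyme (Col1a1 and Pdgfra, 0.0713 and 0.104) and 3 mesothelium and notochord markers (Shh and T, 0.222 and 0.394) passed. Alternatives were other scalings, DESeq2 1.42.0, limma 3.58.1 voom, other filters, robust=FALSE, a minimum change of 1.2-fold, sex as a covariate and leaving out libraries.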

Additional observations from a re-analysis of the deposited data

How the results depend on the processing

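Against 7 keratins called lower with all libraries, 11 were called with the DESeq2 Wald test, 11 when scaled to epithelial markers (with 1 called higher), 4 with embryo sex as a covariate, 3 without both male controls, and 4 to 14 with 1 library left out (4 without control 213 or deletion 208, 14 without control 220, of 24 to 27 tested). The count over all genes, 1352, was 2125 with DESeq2, 7079 with epithelial scaling, 413 with a minimum change of 1.2-fold, 129 with sex as a covariate, 89 without both male controls and 356 to 1872 with 1 library left out. The cause was not tested. Krt10 turned from 0.04 to -0.0047 with sex as a covariate and -0.0026 without both male controls. Krt15 turned from -0.26 to 0.091 with epithelial scaling, 0.167 with sex as a covariate and 0.169 without both male controls, Krt4 from -0.47 to 0.175 and 0.177 under the latter 2, and Krt1 from -0.03 to 0.25 with epithelial scaling. With 1 library left out, Krt10 ranged from -0.041 to 0.11, Krt1 from -0.24 to 0.28, Krt222 from -0.25 to 0.57 and Krt33b from -0.013 to 1.04. With sex as a covariate Krt33b was at 2.84 (from 0.46; unadjusted p = 0.00979, edgeR adjusted p = 0.187), Krt1 at -0.51 and Krt87 at 0.51 (from 1.31), and without both male controls they were at 2.83, -0.50 and 0.51. Krt20 did not pass with limma voom (adjusted p = 0.0544) or without a filter (edgeR adjusted p = 0.0722), Krt17 without a filter (0.0588) and Krt18 with the minimum change (0.0722). No paired analysis was possible because the column names carry no replicate number of the labels. Low counts limit Krt16, Krt20 and the untested keratins.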
